A study of Mus musculus with 8 samples.

Results

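The genes described here build and remodel the non-collagen part of the extracellular matrix (ECM). They are 55 genes taken by symbol from a fixed list of laminins, nidogens, elastic fibre proteins, proteoglycans, matricellular proteins, crosslinking enzymes, proteases and protease inhibitors. All 55 were found among the 31053 gene identifiers of the count table, of which 17367 had any count. Brown adipose tissue (BAT), the thermogenic fat depot, was sequenced as bulk RNA from C57BL6/J mice labelled as 8 weeks old, in 4 libraries of WT and 4 of Cd36KO genotype, and the comparison of the groups asked how loss of CD36 changed the tissue transcriptome. CD36 is a scavenger receptor for lipids. The labels give the second genotype only as Cd36KO. The study also describes a germline knockout, but its text ties its BAT transcriptome to CD36 flox/flox mice crossed with Csf1r-Cre. In that model the deletion follows the Csf1r promoter, which is active in macrophages and other myeloid cells, so that adipocytes, endothelial cells and stromal cells keep the gene. The labels name no treatment for either group. For the Csf1r-Cre cross the study's methods give a higher age at sacrifice than the labels, while its figure legend gives the labelled age. The study's figure legends count mice as replicates, as many per group as there are libraries, although the labels do not name the mice.

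The ECM of fat has several layers. Each adipocyte and each capillary is wrapped in a basement membrane, a sheet in which laminin trimers and collagen IV networks are linked by nidogens and by the heparan sulfate proteoglycans perlecan and agrin. The interstitial space between cells holds fibrillar collagens decorated by small leucine-rich proteoglycans, elastic fibres on a fibrillin scaffold, and matricellular proteins that act on cells rather than carry load. Enzymes that trim and crosslink procollagen, proteases and their inhibitors set how fast this material is built and removed. Most interstitial matrix RNA of fat is made by fibroblast-like stromal cells, while adipocytes, endothelial and mural cells make much of their own basement membrane.

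The libraries held between 2679785 and 4097953 counts. Cd36 was checked first. Its normalized counts (raw counts divided by the DESeq2 size factor of the library) were 2796, 2958, 3505 and 2412 in WT replicates 1 to 4, 1926 in the unnumbered Cd36KO library, and 2109, 2384 and 1930 in Cd36KO replicates 2 to 4. All Cd36KO values lay below all WT values, the transcript stayed abundant in every Cd36KO library, and the log2 fold change of -0.48 (standard error, SE, 0.16) had a DESeq2 adjusted p of 0.0602. The labels call the cell type stromal vascular fraction, which lacks mature adipocytes, yet the adipocyte hormone Adipoq had 2458 to 6294 normalized counts and the brown fat uncoupler Ucp1 had 4235 to 12313, so adipocyte RNA was abundant in all 8 libraries. The study's methods state that all mice were males, whereas Xist had 772 to 1588 raw counts in every library and Uty, Kdm5d and Eif2s3y had 0. WT replicate 1 stood apart from the other WT libraries. It had the highest sum of 13 skeletal muscle markers (58205 normalized counts, against 988 to 12799 in the other WT and 354 to 8640 in the Cd36KO libraries) and the lowest WT sum of 9 white fat markers (683, against 3996 to 4905), within the Cd36KO range of 564 to 996. The 4 matrix genes that passed are given with and without it.

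Of the 55 matrix genes, 43 received an adjusted p and 4 passed the threshold of 0.05 in DESeq2. The interstitial protein gene Dpt and the basement membrane genes Nid1 and Lama4 were lower in Cd36KO, and the basement membrane proteoglycan gene Agrn was higher. These 4 were 9.30% of the 43, beside 2.95% of all 9619 genes tested. By direction, 3 of 43 were lower (6.98%) and 1 was higher (2.33%), beside 1.53% and 1.42% of all genes. At an unadjusted p under 0.05, 12 matrix genes were lower (27.9%) and 1 was higher (2.33%), beside 7.88% and 7.69% of all genes. Among the 45 matrix genes whose normalized count averaged at least 10, 35 had a negative log2 fold change (77.8%, beside 51.0% of all 9834 such genes) and the median was -0.32 (beside -0.0099 for all). Among the 35 with a mean of at least 20, all 4 Cd36KO values lay below all 4 WT values for Lama4, Nid1, Ogn, Dpt and Loxl2 (14.3%, beside 4.03% of all genes at that level) and above them for Agrn (2.86%, beside 5.41%). Such separation of 4 from 4 libraries by itself sets the exact two-sided permutation p to 0.0286, the smallest of 70 arrangements, so this p adds nothing to the description of these 6 genes. The edgeR quasi-likelihood test called 1 of 45 matrix genes, Dpt, beside 0.143% of the 9793 genes it tested. In bulk RNA, fewer cells of a type and less RNA per cell cannot be told apart.

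**Figure D1:**
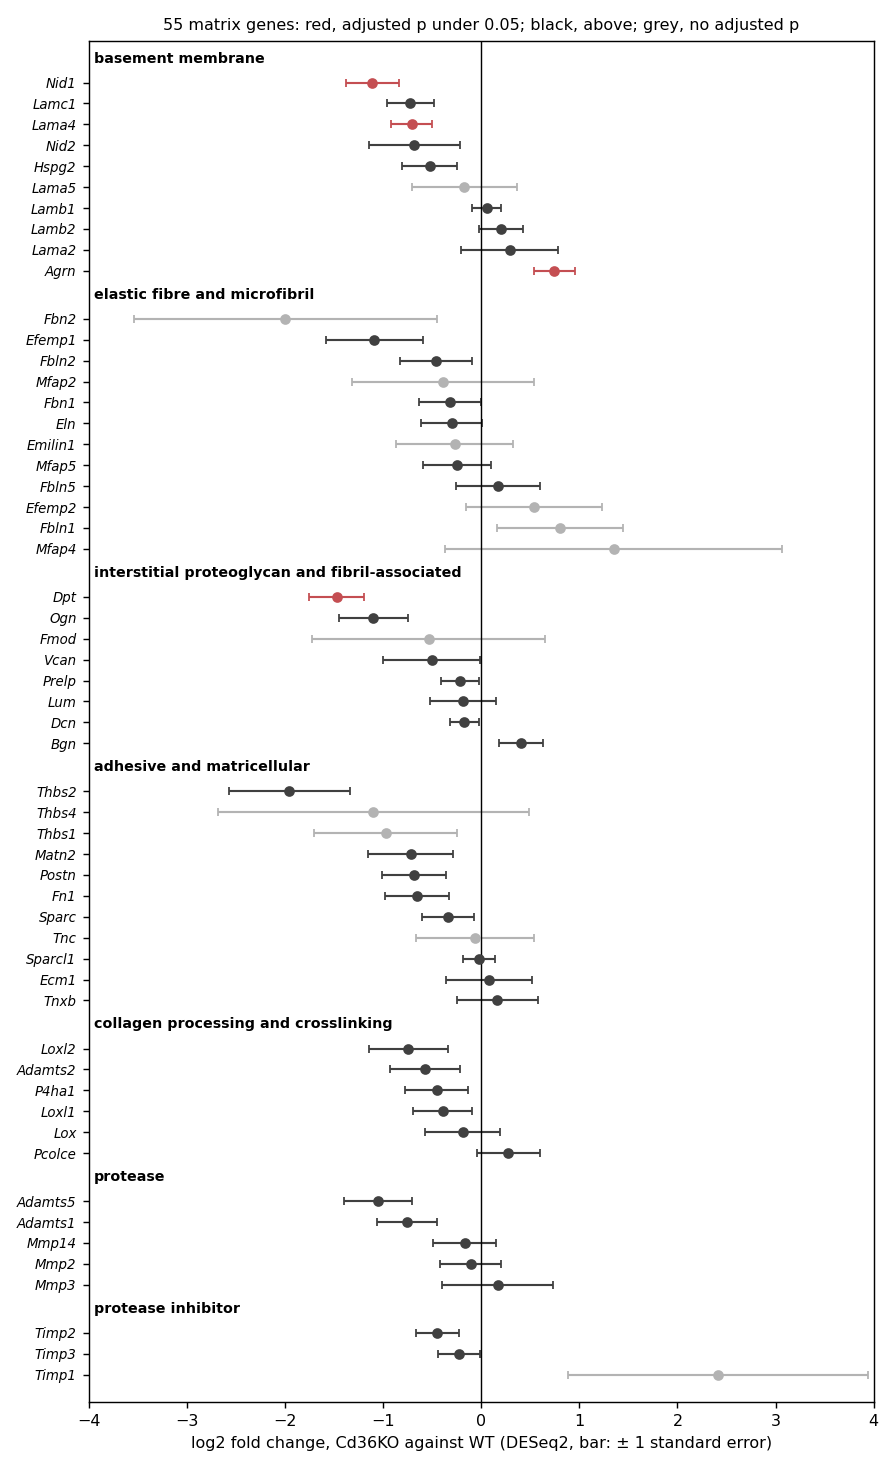
DESeq2 log2 fold change (Cd36KO against WT, horizontal axis) of each of the 55 matrix genes with a bar of 1 standard error, in 7 groups by role (vertical axis). Red points passed an adjusted p of 0.05, black points did not, and grey points received no adjusted p. Most points lie left of 0, and Agrn, at 0.74, is the 1 red point to the right.

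The 12 genes without an adjusted p were Lama5, Fbn2, Fbln1, Efemp2, Mfap2, Mfap4, Emilin1, Fmod, Tnc, Thbs1, Thbs4 and Timp1. Their mean normalized counts over the 8 libraries ran from 1.45 for Thbs4 to 10.8 for Lama5, below the level at which DESeq2 adjusts p-values in this table. Timp1, a tissue inhibitor of metalloproteinases that is induced in many injured tissues, had 12 raw counts over all 8 libraries, and a difference of that gene was not detectable at this depth.

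In the basement membrane group of 10 genes, 2 were lower, 1 was higher and 7 did not pass (1 of these, Lama5, had no adjusted p). The median log2 fold change was -0.35. Nid1 (ENSMUSG00000005397, chr13:13437551-13512269, plus strand) encodes nidogen-1, which bridges laminin and collagen IV networks. It had 184, 249.7, 423 and 216 normalized counts in WT replicates 1 to 4, 106 in the unnumbered Cd36KO library, and 154, 127 and 109.8 in Cd36KO replicates 2 to 4. All Cd36KO libraries were below all WT libraries, and WT replicate 3 was by far the highest. The WT mean of 268 ± 107 normalized counts (SD, n = 4) fell to 124 ± 22.0 (SD, n = 4), which gave a log2 fold change of -1.11 (SE 0.27, DESeq2 adjusted p = 0.00552). Without WT replicate 3 it was -0.80 (adjusted p = 0.0456), and without WT replicate 1 it was -1.25 (adjusted p = 0.000121). The edgeR adjusted p was 0.0935.

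Lama4 (ENSMUSG00000019846, chr10:38965515-39110188, plus strand) encodes the laminin alpha-4 chain, the alpha chain typical of vessel and adipocyte basement membranes. Its normalized counts were 236.5, 312, 409 and 307 in WT replicates 1 to 4, 172 in the unnumbered Cd36KO library, and 235.9, 180.0 and 185 in Cd36KO replicates 2 to 4. The groups parted by less than 1 count, between WT replicate 1 and Cd36KO replicate 2. From a WT mean of 316 ± 71.0 (SD, n = 4) it fell to 193 ± 29.1 (SD, n = 4), and the log2 fold change was -0.71 (SE 0.21, DESeq2 adjusted p = 0.0304). Leaving out WT replicate 2 or 3, the unnumbered Cd36KO library, or Cd36KO replicate 3 or 4 ended this call, with adjusted p between 0.0920 and 0.199. It was -0.83 (adjusted p = 0.00296) without WT replicate 1. The call was also lost in edgeR (adjusted p = 0.121), in limma (0.152) and in DESeq2 with independent filtering off (0.0537).

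Agrn (ENSMUSG00000041936, chr4:156165290-156197488, minus strand) encodes agrin, a heparan sulfate proteoglycan of basement membranes best known for clustering receptors at the neuromuscular junction. It had 162, 99.4, 133 and 115 normalized counts in WT replicates 1 to 4, 245 in the unnumbered Cd36KO library, and 211, 224 and 173 in Cd36KO replicates 2 to 4. All Cd36KO libraries were above all WT libraries. From a WT mean of 127 ± 26.7 (SD, n = 4) it rose to 213 ± 30.3 (SD, n = 4), and the log2 fold change was 0.74 (SE 0.21, DESeq2 adjusted p = 0.0261). Leaving out WT replicate 2 or 3, the unnumbered Cd36KO library or Cd36KO replicate 3 ended the call, with adjusted p between 0.0821 and 0.159. It was 0.88 (adjusted p = 0.00334) without WT replicate 1, and edgeR gave an adjusted p of 0.126.

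Laminins assemble as trimers of an alpha, a beta and a gamma chain, and the other chains did not pass. Lamc1, the gamma-1 chain gene, is described after its values were seen. It had 130.0, 151, 160.0 and 84.1 normalized counts in WT replicates 1 to 4, 81.3 in the unnumbered Cd36KO library, and 78.2, 84.9 and 73.2 in Cd36KO replicates 2 to 4. WT replicate 4 lay within the Cd36KO range, and the log2 fold change was -0.73 (SE 0.24, DESeq2 adjusted p = 0.0680). Without WT replicate 4 it was -0.89 (adjusted p = 0.00242), and with any other library left out it ran from -0.76 to -0.62 and did not pass (adjusted p = 0.0976 to 0.310). Lamb1, the beta-1 chain gene, had 801.8 to 888 normalized counts in WT and 731 to 1021 in Cd36KO. The groups overlapped, and its log2 fold change of 0.05 had a 95% interval of -0.23 to 0.34. Hspg2, which encodes perlecan, had 589 normalized counts in WT replicate 1, 267 to 313 in the other WT libraries and 187 to 342 in Cd36KO. Its log2 fold change was -0.53 (SE 0.28, adjusted p = 0.354), and without WT replicate 1 it was -0.20 (adjusted p = 0.817). The remaining genes of the group, Lama2, Lama5, Lamb2 and Nid2, had log2 fold changes between -0.68 (Nid2) and 0.29 (Lama2), and none passed. Nid2 shares 437 exon bases with Rtraf on the opposite strand, and whether counting used strand is not given in the sources used here, so its value is uncertain. The antisense gene annotated over part of Nid1 had 0 counts in all libraries.

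Among the 8 interstitial proteoglycan and fibril-associated genes, 1 was lower and 7 did not pass, with a median log2 fold change of -0.22 over the 7 genes at a mean of at least 10. Dpt (ENSMUSG00000026574, chr1:164796644-164824266, plus strand) encodes dermatopontin, a small protein that binds decorin and promotes the assembly of collagen fibrils. It had 133, 313, 313 and 340.3 normalized counts in WT replicates 1 to 4, 85.8 in the unnumbered Cd36KO library, and 112, 95.1 and 102 in Cd36KO replicates 2 to 4. All Cd36KO libraries were below all WT libraries, and WT replicate 1 was much closer to the Cd36KO libraries than to the other WT libraries. The WT mean was 275 ± 95.6 (SD, n = 4) and the Cd36KO mean 98.7 ± 10.9 (SD, n = 4), for a log2 fold change of -1.48 (SE 0.28, DESeq2 adjusted p = 8.09e-05), and edgeR gave an adjusted p of 0.0394. Without WT replicate 1 the log2 fold change was -1.71 (adjusted p = 3.34e-15). Within WT the white fat marker sum was also lowest in replicate 1 (683, against 3996 or more in the others), and its part in the Dpt result was not tested.

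Ogn, which encodes osteoglycin, a small leucine-rich proteoglycan, had 27.1, 33.1, 40.0 and 39.6 normalized counts in WT replicates 1 to 4, 13.4 in the unnumbered Cd36KO library, and 15.0, 20.5 and 16.0 in Cd36KO replicates 2 to 4. The groups did not overlap, but the log2 fold change of -1.10 (SE 0.36) did not pass (DESeq2 adjusted p = 0.0611). The leucine-rich proteoglycan genes Dcn (decorin) and Prelp showed smaller differences. Dcn had 596 to 741 normalized counts in WT and 550.4 to 676 in Cd36KO, a log2 fold change of -0.17 with a 95% interval of -0.46 to 0.11. Prelp, whose product anchors basement membranes to the tissue beneath, had 279 in WT replicate 1, 398 to 408 in the other WT libraries and 276 to 396 in Cd36KO, a log2 fold change of -0.22 (interval -0.59 to 0.15). The ranges of both genes overlapped between the groups. Bgn, which encodes biglycan and is described after its values were seen, had the opposite sign, at 0.40 (SE 0.22, adjusted p = 0.373).

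**Figure D2:**
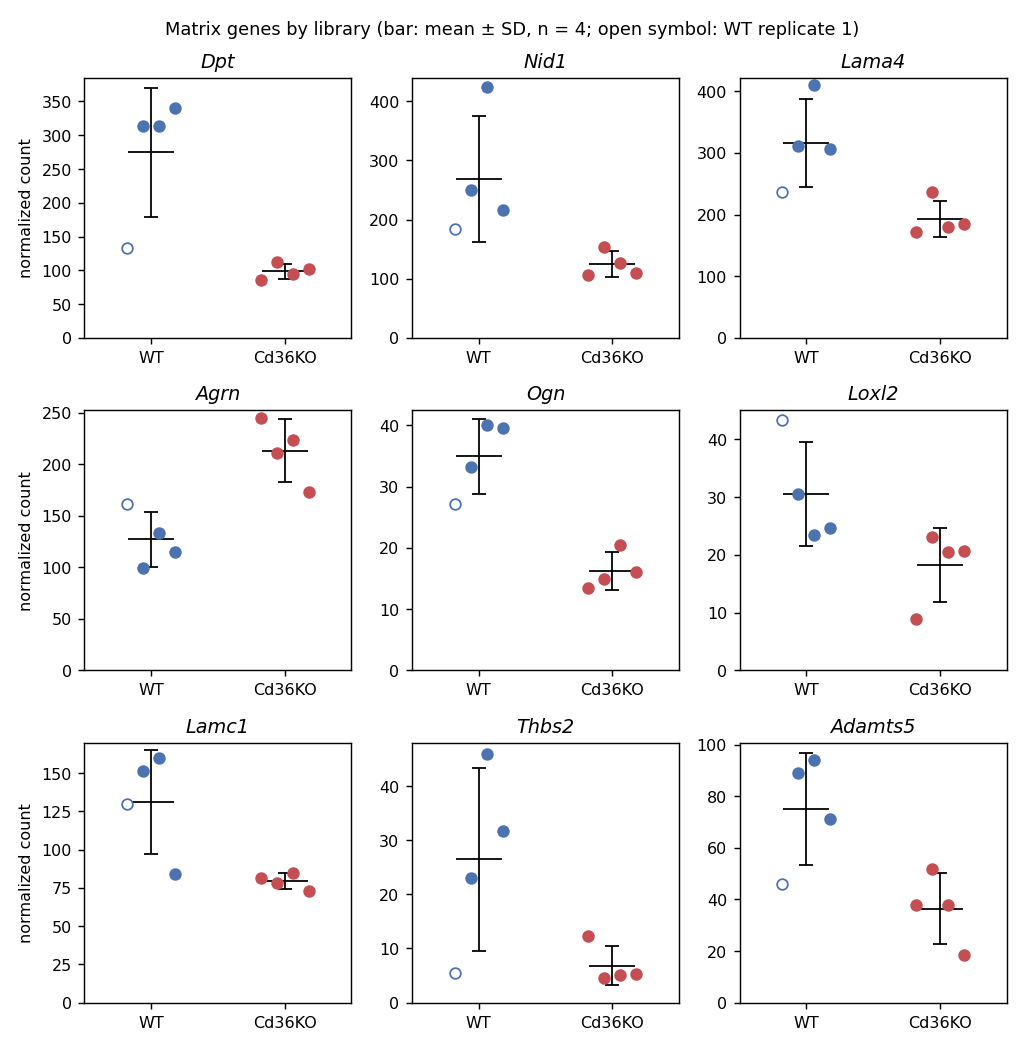
Normalized counts (vertical axes, from 0) of 9 matrix genes in the 4 WT (blue) and 4 Cd36KO (red) libraries (horizontal axes), 1 point a library, with a bar at the mean ± SD. The open symbol is WT replicate 1. The groups are apart in Dpt, Nid1, Lama4, Agrn, Ogn and Loxl2 and overlap in Lamc1, Thbs2 and Adamts5. In Dpt the open symbol, at 133, lies near the Cd36KO values of 85.8 to 112.

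The sequence before the annotated start is shown for the called genes with an entry in the RefSeq promoter table (GRCm38.p6), which are Nid1, Agrn and Dpt, so that 3 genes that moved can be set side by side. Each run ends just before the first base of the gene and reads 5′ to 3′ on the gene's strand. Capitals mark CG dinucleotides.
Nid1 (chr13:13437352-13437550, plus strand): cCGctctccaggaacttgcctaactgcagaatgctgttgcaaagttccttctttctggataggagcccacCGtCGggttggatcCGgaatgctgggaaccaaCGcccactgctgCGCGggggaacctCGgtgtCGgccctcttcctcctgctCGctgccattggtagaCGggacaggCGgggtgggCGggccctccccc
Agrn (chr4:156197489-156197738, minus strand): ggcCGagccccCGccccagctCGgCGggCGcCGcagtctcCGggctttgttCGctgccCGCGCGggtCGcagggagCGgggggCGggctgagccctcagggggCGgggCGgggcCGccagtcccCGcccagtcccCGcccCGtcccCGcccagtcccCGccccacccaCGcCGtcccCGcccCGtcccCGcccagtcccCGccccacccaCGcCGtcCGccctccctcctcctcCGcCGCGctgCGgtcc
Dpt (chr1:164796413-164796643, plus strand): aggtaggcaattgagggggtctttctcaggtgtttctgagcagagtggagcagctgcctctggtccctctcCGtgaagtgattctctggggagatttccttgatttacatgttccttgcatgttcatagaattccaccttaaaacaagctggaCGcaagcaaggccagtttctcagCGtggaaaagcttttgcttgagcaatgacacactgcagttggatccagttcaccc
The base composition of the 3 runs differed widely. Agrn, the 1 gene that rose, had 35 CG dinucleotides in 250 bases and 83.6% G and C. Nid1 had 13 in 199 bases and 63.8%. Dpt had 3 in 231 bases and 48.9%. The printed runs are shorter than the promoter windows of 300 bases. Over all 32851 windows the median was 2.33 CG dinucleotides per 100 bases. The full windows of these genes had 14.0 for Agrn, 6.67 for Nid1 and 1.33 for Dpt. Over the 45 windows of 37 matrix genes with an entry the median was 3.67. Agrn has a further window in the table, at an internal start of the gene, which is not printed and had 3.67 CG dinucleotides per 100 bases and 61.3% G and C. The following short motifs were searched on both strands, none overlapping another in its letters. They were CAGAC (the core of the Smad element), TGANTCA (the AP-1 element) and TATAAA (the TATA box). None of the 3 printed runs held any of them, but these runs are shorter than the windows counted next. CAGAC was in 49.6% of all windows and 48.9% of the matrix gene windows, TGANTCA in 7.81% and 8.89%, and TATAAA in 13.6% and 22.2%. A match of letters, or its absence from a window, says nothing about binding.

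None of the 12 elastic fibre and microfibril genes passed in DESeq2 or edgeR, and 1 had an unadjusted p under 0.05 in each. Elastic fibres consist of an elastin core on a fibrillin scaffold joined by fibulins. Of the 6 genes at a mean of at least 10, 5 had a negative log2 fold change, and the median was -0.31. Fbn1, which encodes fibrillin-1, had 35.6 to 84.9 normalized counts in WT and 39.9 to 66.8 in Cd36KO, a log2 fold change of -0.32 (95% interval -0.95 to 0.31). Eln, the elastin gene, had 33.6 to 61.2 in WT and 29.9 to 53.5 in Cd36KO, a log2 fold change of -0.30 (interval -0.91 to 0.31). Both pairs of ranges overlapped. Efemp1, which encodes fibulin-3 and is described after its values were seen, had 15.8 to 28.9 normalized counts in WT and 3.81 to 13.3 in Cd36KO. These ranges did not overlap, and its log2 fold change of -1.09 (SE 0.49) did not pass (DESeq2 adjusted p = 0.239).

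None of the 11 adhesive and matricellular genes passed in either test, with 3 at an unadjusted p under 0.05 in each, and their median log2 fold change was -0.34 over the 9 genes at a mean of at least 10. Sparc, a collagen-binding matricellular protein gene, had 3739, 5856, 9021 and 5526 normalized counts in WT replicates 1 to 4, 4957 in the unnumbered Cd36KO library, and 3146, 4409.5 and 6583 in Cd36KO replicates 2 to 4. The ranges overlapped, and the log2 fold change of -0.34 had a 95% interval of -0.86 to 0.19. With each library left out in turn it ran from -0.53 (without Cd36KO replicate 4) to -0.076 (without WT replicate 3). Sparcl1, its relative hevin, had 1104 to 1422 in WT and 1019 to 1465 in Cd36KO. That range was nearly the same in both groups, with a log2 fold change of -0.02 (interval -0.34 to 0.30).

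Thbs2, Postn and Fn1 are described after their values were seen. Thbs2 encodes thrombospondin-2, a matricellular inhibitor of vessel growth. It had 5.42, 22.9, 45.9 and 31.6 normalized counts in WT replicates 1 to 4, 12.3 in the unnumbered Cd36KO library, and 4.60, 5.11 and 5.34 in Cd36KO replicates 2 to 4. WT replicate 1 lay among the Cd36KO values, and the 3 other WT libraries were above all of them. The log2 fold change of -1.96 (SE 0.62) was the most negative among matrix genes with a mean of at least 10 and did not pass (DESeq2 adjusted p = 0.0526). Without WT replicate 1 it was -2.30 (adjusted p = 0.00151), and without WT replicate 3 it was -1.56 (adjusted p = 0.327). Postn, which encodes periostin, had 63.3 to 230.5 in WT and 79.1 to 113 in Cd36KO (log2 fold change -0.69, adjusted p = 0.262). WT replicate 4 was its lowest library, and without it the value was -0.95 (adjusted p = 0.00181), while without WT replicate 3 it was -0.46 (adjusted p = 0.677). Fn1, the fibronectin gene, had 28.2 to 58.7 in WT and 23.0 to 34.8 in Cd36KO (log2 fold change -0.65, adjusted p = 0.307).

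**Figure D3:**
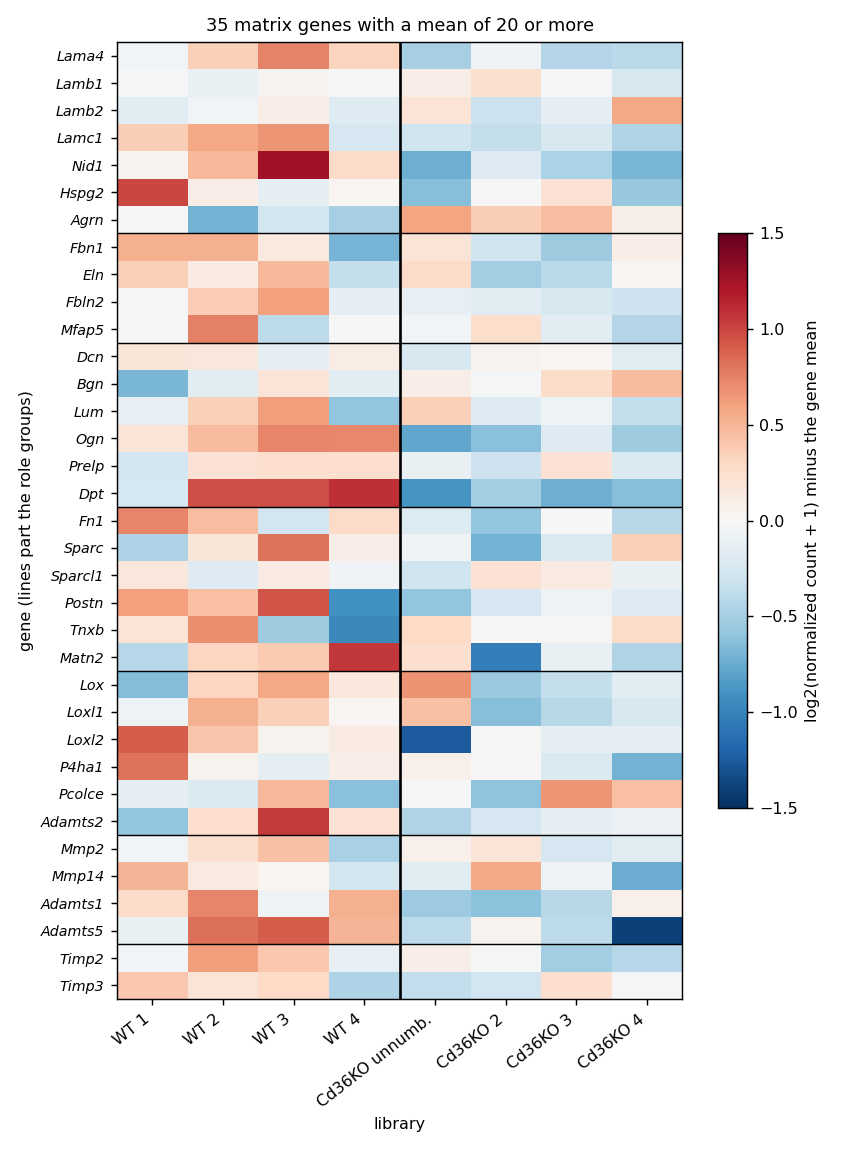
Each cell is log2(normalized count + 1) minus the gene's mean over the 8 libraries (colour scale), for the 35 matrix genes with a mean of at least 20 (vertical axis, lines part the role groups) in each library (horizontal axis, a line parts WT from Cd36KO). Dpt, Ogn, Nid1 and Lama4 are red in most or all WT and blue in the Cd36KO libraries, Agrn is the reverse, and Sparcl1 and Lamb1 are pale throughout.

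Of the 6 genes for collagen processing and crosslinking, none passed in DESeq2 or edgeR (0 and 1 at an unadjusted p under 0.05), 5 had a negative log2 fold change and the median was -0.43. Loxl2, a lysyl oxidase family gene whose product crosslinks collagen, had 43.3, 30.6, 23.5 and 24.7 normalized counts in WT replicates 1 to 4, 8.91 in the unnumbered Cd36KO library, and 23.0, 20.5 and 20.6 in Cd36KO replicates 2 to 4. The groups did not overlap, although WT replicate 3 and Cd36KO replicate 2 differed by less than 1 count. The log2 fold change of -0.74 (SE 0.40) had a DESeq2 adjusted p of 0.357. Loxl1, the family member that acts on elastin, had 49.6 to 76.4 in WT and 33.4 to 71.3 in Cd36KO (log2 fold change -0.40, 95% interval -0.99 to 0.20). Pcolce, which encodes the enhancer of procollagen C-proteinase, had 55.4 to 122 in WT and 56.4 to 137 in Cd36KO. It was the 1 gene of the group with a positive log2 fold change, at 0.28 (interval -0.35 to 0.90). Lox, P4ha1 and Adamts2 had log2 fold changes of -0.57 to -0.19.

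The 5 protease genes had a median log2 fold change of -0.17 and none passed, with 2 at an unadjusted p under 0.05 in DESeq2 and in edgeR. Adamts5 encodes a secreted protease that cleaves versican and aggrecan. It had 46.0, 89.2, 94.1 and 71.2 normalized counts in WT replicates 1 to 4, 37.9 in the unnumbered Cd36KO library, and 51.8, 37.8 and 18.3 in Cd36KO replicates 2 to 4. WT replicate 1 lay below Cd36KO replicate 2, and the other WT libraries were above all Cd36KO libraries. The log2 fold change was -1.06 (SE 0.35, DESeq2 adjusted p = 0.0648), and without WT replicate 1 it was -1.24 (adjusted p = 0.0131). With any other library left out it did not pass or received no adjusted p, with -0.93 (adjusted p = 0.279) without WT replicate 3 and -0.82 (adjusted p = 0.202) without Cd36KO replicate 4. Adamts1, a related versican-cleaving protease gene described after its values were seen, had 41.2 to 71.3 in WT and 27.6 to 45.0 in Cd36KO (log2 fold change -0.76, adjusted p = 0.162). The metalloproteinase genes differed less. Mmp14, a membrane-bound collagenase gene, had 44.5 to 77.6 in WT and 32.0 to 80.5 in Cd36KO (log2 fold change -0.17, 95% interval -0.80 to 0.46), and Mmp2 and Mmp3 had values of -0.11 and 0.17.

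Timp2 and Timp3 encode secreted inhibitors of these proteases, Timp3 being bound to the matrix, and neither passed. 1 of them, Timp2, had an unadjusted p under 0.05 in DESeq2 and in edgeR. Timp2 had 433 to 727 normalized counts in WT and 327 to 506 in Cd36KO, a log2 fold change of -0.45 (SE 0.22, DESeq2 adjusted p = 0.293). Timp3 had 788 to 1431 in WT and 837 to 1293 in Cd36KO, a log2 fold change of -0.23 (95% interval -0.65 to 0.19). Both pairs of ranges overlapped. Timp3 shares 1733 exon bases with Syn3 on the opposite strand, which had 5 counts over all libraries.

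Matrix genes and matrix receptors outside these 55 were read from the same fit through 5 lists with 162 genes, of which 73 received an adjusted p. Of the 73, 2 were higher (2.74%, beside 1.42% of all genes) and 7 were lower (9.59%, beside 1.53%). The median log2 fold change of the 76 at a mean of at least 10 was -0.27, beside -0.0099 for all such genes. By list, the other basement membrane genes had 0 DESeq2 calls among 4 (2 at an unadjusted p under 0.05) and the other elastic fibre genes 1 among 9. The other proteoglycan and matricellular genes had 3 among 12, the other protease, inhibitor and collagen-processing genes 2 among 28, and the matrix receptors 3 among 20. The 2 that rose were Ltbp2 (log2 fold change 0.80, DESeq2 adjusted p = 0.0137), a microfibril-associated protein gene, and Plod1 (0.62, adjusted p = 0.0422), which hydroxylates collagen lysines. Podn (-1.26, adjusted p = 0.00945), a leucine-rich proteoglycan gene, Spon1 (-2.03, adjusted p = 0.00289), which encodes the matrix protein F-spondin, and Srpx2 (-2.45, adjusted p = 0.000131), a secreted sushi-repeat protein gene, were lower.

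The 3 receptors that fell bind matrix or clear it. Lrp1, an endocytic receptor for proteases and thrombospondins, had 187, 215, 299 and 171 normalized counts in WT replicates 1 to 4, 68.0 in the unnumbered Cd36KO library, and 125, 135 and 107 in Cd36KO replicates 2 to 4. Its groups did not overlap (log2 fold change -0.999, SE 0.257, DESeq2 adjusted p = 0.0106). Itga7, the alpha subunit of a laminin-binding integrin that is abundant in muscle, fell by 0.81 on the log2 scale (adjusted p = 0.0395), and Gpc1, which encodes the cell surface heparan sulfate proteoglycan glypican-1, fell by 1.72 (adjusted p = 0.0264). Gpc1 had 126 normalized counts in WT replicate 1 and 38.8 to 61.2 in the other WT libraries. The edgeR test called 0 of 75 genes of the 5 lists, with 22 at an unadjusted p under 0.05 (beside 1580 of the 9793 genes it tested), the same number as in DESeq2. Of those in DESeq2, 4 were higher (5.48%, beside 7.69% of all genes) and 18 lower (24.7%, beside 7.88%). In DESeq2, 12 were called without WT replicate 1 (beside 3.18% of all genes tested in that fit), 0 without WT replicate 2 (beside 1.43%), 2 without WT replicate 3 (beside 1.19%) and 6 without WT replicate 4 (beside 8.51%). There were 3 without the unnumbered Cd36KO library (beside 1.11%), and 5, 4 and 2 without Cd36KO replicates 2, 3 and 4 (beside 6.03%, 2.65% and 2.28%). The number of genes tested in these fits ran from 4530 to 11841, so the counts cannot be read against each other alone.

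**Figure D4:**
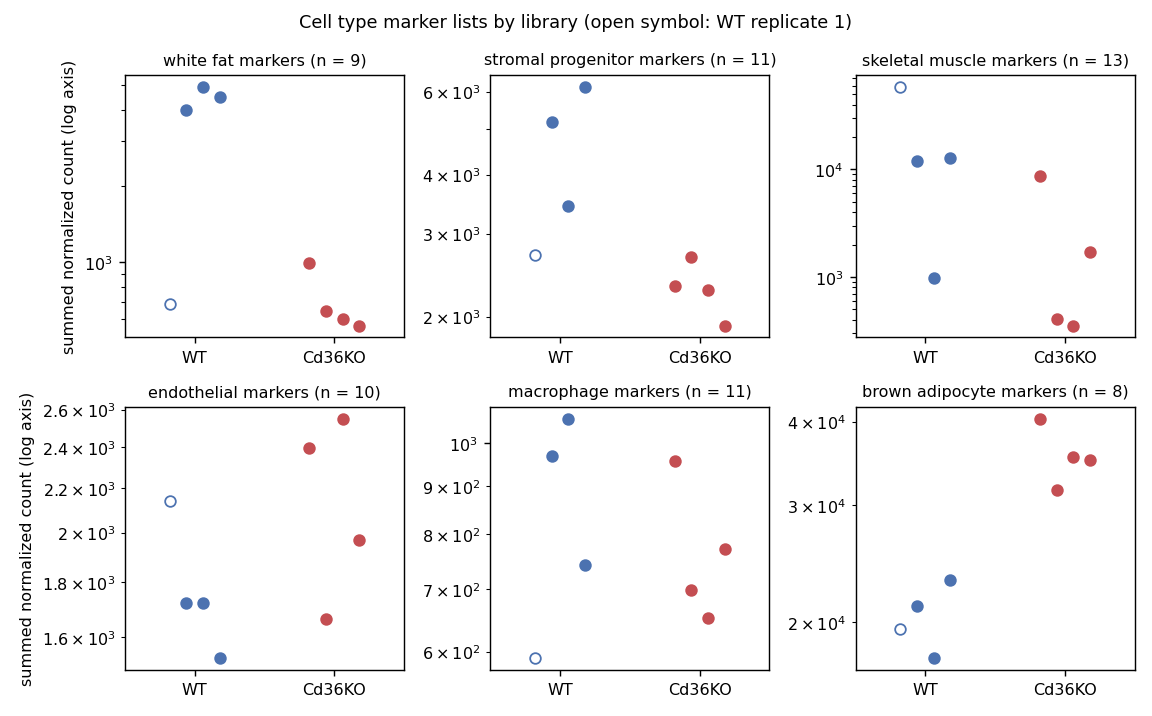
Summed normalized counts (vertical axes, log scale) of 6 cell type marker lists in the 4 WT (blue) and 4 Cd36KO (red) libraries (horizontal axes), 1 point a library. The open symbol is WT replicate 1, which is within the Cd36KO range for white fat markers and highest for skeletal muscle markers. Brown adipocyte sums of all Cd36KO libraries (31618 to 40352) are above those of all WT libraries (17690 to 23127).

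Cell type marker lists were read from the same fit. They were chosen with earlier results of these data known, so calls in them are no independent support. The 9 white fat markers summed to 683 to 4905 normalized counts in WT and 564 to 996 in Cd36KO, and Hoxc10 was at 0. In DESeq2, 5 of the 6 with an adjusted p were lower (Agt, Aldh1a1, Hoxc8, Lep and Nnat), beside 1.53% of all genes. The 11 stromal progenitor markers summed to 2706 to 6136 in WT and 1914 to 2680 in Cd36KO, so the groups did not overlap in this sum. Taken singly, 0 of the 6 stromal markers with a mean of at least 20 had groups that did not overlap. Of the 8 with an adjusted p, Gsn was lower (log2 fold change -1.09, adjusted p = 0.00648), and it held most of the sum, with a mean of 3835 in WT and 1801 in Cd36KO. Pdgfra, the defining receptor gene of these cells, had 20.8 to 51.0 in WT and 13.7 to 46.0 in Cd36KO (-0.56, adjusted p = 0.573). None of the 13 muscle markers passed in DESeq2 or edgeR (7 and 11 at an unadjusted p under 0.05), and their sums were 988 to 58205 in WT and 354 to 8640 in Cd36KO. The 8 Schwann cell markers summed to 483 to 526 in WT and 255 to 399 in Cd36KO, with Scn7a lower. The sums of the 10 endothelial (1531 to 2139 and 1662 to 2547), 10 mural (1133 to 2153 and 997 to 1371) and 11 macrophage markers (591 to 1061 and 652 to 958) overlapped between WT and Cd36KO, with Cd163 the 1 macrophage marker called. Of 6 mesothelial markers, Msln, Upk1b, Upk3b and Wt1 were at 0. The 8 brown adipocyte markers summed to 17690 to 23127 in WT and 31618 to 40352 in Cd36KO. Of these 8, 4 were higher in DESeq2 (Cidea, Cox7a1, Cox8b and Ucp1), beside 1.42% of all genes. The 8 general adipocyte markers summed to 34806 to 63961 in WT and 38399 to 41419 in Cd36KO, and none passed in DESeq2 or edgeR (2 at an unadjusted p under 0.05 in each). The part of these cell types in the matrix values was not tested.

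Leaving out WT replicate 1 raised the number of matrix genes called in DESeq2 from 4 to 6, beside 3.18% of 10621 genes tested without it. The genes added were Adamts5 and Thbs2. Without WT replicate 4, 6 were called, beside 8.51% of 5885 genes, with Lamc1 and Postn added. Without WT replicate 2, WT replicate 3, the unnumbered Cd36KO library or Cd36KO replicate 3, the 2 called were Dpt and Nid1, beside 1.43%, 1.19%, 1.11% and 2.65% of all genes. Without WT replicate 2 or Cd36KO replicate 3, 19 and 18 matrix genes received an adjusted p. These 2 passed when any 1 of the 8 libraries was left out, whereas Agrn passed in 4 and Lama4 in 3 of the 8. The limma test on the authors' log2 values called 0 of 45 matrix genes and 0 of all 9834 genes, with 12 matrix genes and 1551 of all genes at an unadjusted p under 0.05.

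**Figure D5:**
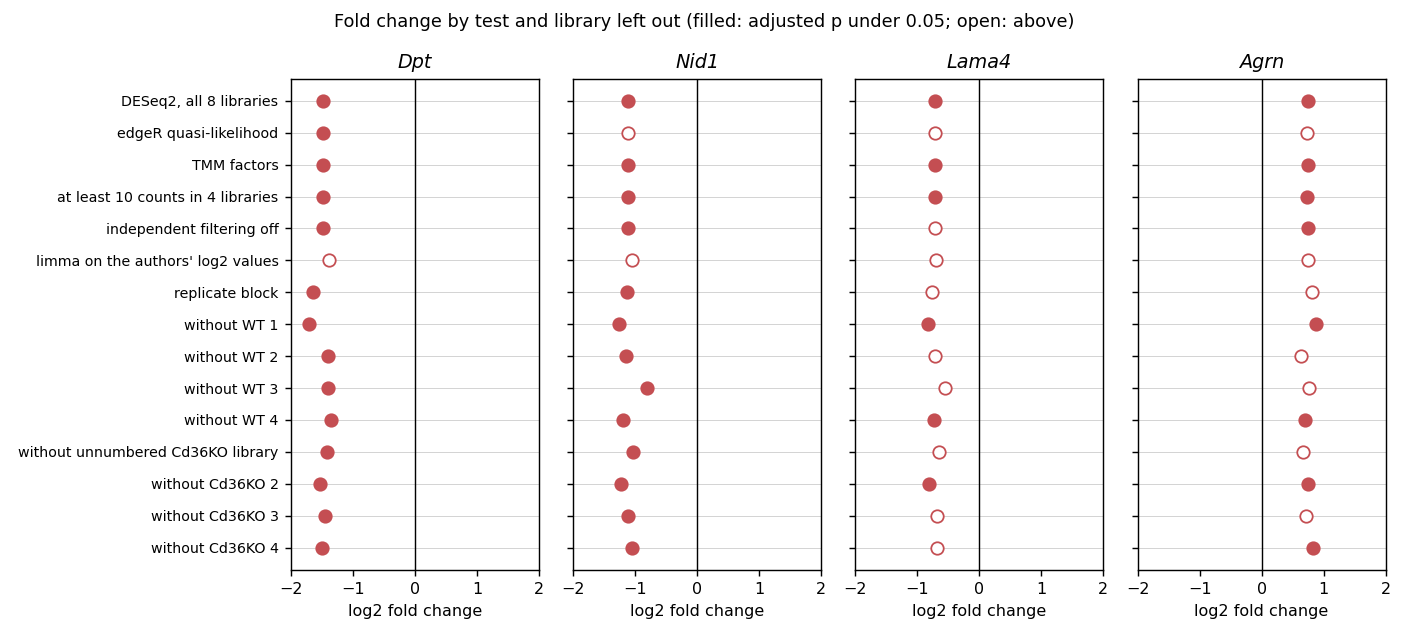
DESeq2, edgeR or limma log2 fold change (horizontal axes, Cd36KO against WT) of Dpt, Nid1, Lama4 and Agrn for each test and each library left out (vertical axis). Filled points have an adjusted p under 0.05 and open points do not. The sign of each gene is the same in every row, Dpt is filled except in limma, and Lama4 is open in 9 of the 14 alternatives.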

How the data were processed

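RNA of BAT was sequenced as single-end 75-cycle digital mRNA-seq libraries. The deposited table holds whole-number raw counts per Ensembl gene, and a further deposited table holds log2 values that the authors normalized, which equalled log2(count divided by the DESeq2 size factor + 1) to within 5.15e-14. The submitters' processing notes name Trimmomatic, HISAT2, DESeq2, GRCm38 and mm10, while the study's methods text names bbduk, STAR and HTSeq-count, and its resource list also holds Trimmomatic and HISAT2. Which of these made the deposited counts was not settled. A file of sample attributes was not used. Of 31053 identifiers, 30934 matched GENCODE M21 by name, and the other 119 held 3959 counts in all.

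Total counts ranged from 2679785 to 4097953 per library. Counting error is therefore large for genes under about 20 counts. No pair of libraries of a group agreed within sampling noise (chi-square per degree of freedom 6.86 to 63.9). Counts of all genes were fitted with DESeq2 1.42.0 in R 4.3.3 (genotype only, Wald test, default independent filtering, Benjamini-Hochberg over all genes tested, threshold 0.05). Alternatives were edgeR 4.0.16 (quasi-likelihood), TMM factors, genes with at least 10 counts in 4 libraries alone, no independent filtering, limma 3.58.1 on the authors' log2 values, a replicate block, each library left out, and, for the median, a mean of at least 50. Single genes were compared by exact two-sided permutation (SciPy 1.17.1). Values with a 95% interval are DESeq2 log2 fold changes. 1 Cd36KO column carries no replicate number and is called unnumbered.

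The named genes were Cd36, the matrix genes that passed DESeq2, those with a mean of at least 20 and no overlap between groups, the 2 of each role group with the highest mean, and genes of the other lists that passed, of which 1 is not reported here. Others are said to be described after their values were seen. The 55 genes, their role groups and all lists were chosen with earlier results of these data known.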

Additional observations from a re-analysis of the deposited data

Results flagged for a closer look

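In 42 groups of 4 libraries (20 matrix genes and Cd36, in WT and in Cd36KO) the highest or lowest library was compared with the other 3, and 3 groups had a library whose gap to its nearest neighbour, as a share of the range of the group, exceeded Dixon's 95% critical value. Chance gives about 1 in 20, or 2.1 of 42. In WT replicate 1, Prelp had 278.9 normalized counts, against 398 to 408 in the other WT libraries. Dpt had 132.7 in that library, against 313 to 340.3 in the others. In the unnumbered Cd36KO library, Loxl2 had 8.913 normalized counts, against 20.5 to 23.0 in the other Cd36KO libraries. WT replicate 1 also had the lowest WT sum of white fat markers (683) and the highest sum of skeletal muscle markers (58205).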

How the results depend on the processing

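The number of genes called varied between settings, and the causes were not tested. Against 4 called (1 higher, 3 lower), edgeR called 1 (0 higher, 1 lower), limma 0 (0 higher, 0 lower), and the filter of 10 counts in 4 libraries 7 (6 lower, with Adamts5, Ogn and Thbs2 added, beside 3.06% of all genes). TMM factors called the same 4 (beside 2.82%), and with independent filtering off 3 passed (beside 0.985%). Leaving out each library in turn gave 2 to 6 called, 0 to 1 higher and 2 to 5 lower. For the other matrix lists (9 called), edgeR and limma called 0 each, and leaving out each library gave 0 to 12. At an unadjusted p under 0.05 edgeR had 14 of 45 matrix genes (beside 1580 of all 9793) and limma 12 of 45 (beside 1551 of all 9834).

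The replicate block could use only replicates 2, 3 and 4 of each group (6 libraries). Deviations of same-numbered libraries correlated at -0.13, 0.42 and 0.14, so the numbers were not taken to pair the libraries. With the replicate block, 3 matrix genes were called (Dpt, Nid1 and Thbs2), 0 of them higher, and 6 genes of the other matrix lists. Agrn had 0.81 (adjusted p = 0.113), Lama4 -0.77 (adjusted p = 0.0789) and Sparcl1 0.12. The block called 222 of all genes. The same 6 libraries without the block, an alternative chosen after seeing the data, called 262 of all 11123 genes tested (2.355%). Of 49 matrix genes tested there, 6 were called (Adamts5, Agrn, Dpt, Lama4, Nid1 and Thbs2), 5 of them lower. Against this fit, the block lost Adamts5, Agrn and Lama4. Hspg2 had -0.11 and Postn -0.36 with the block.

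Among the 20 named matrix genes and Cd36, the signs of Sparcl1, Mmp14 and Lamb1 turned. Sparcl1 (-0.02) ranged from -0.10 to 0.067 with each library left out, with 0.033 without WT replicate 1, 0.015 without WT replicate 3, 0.067 without the unnumbered Cd36KO library and 0.014 without Cd36KO replicate 4. Mmp14 (-0.17) ranged from -0.44 to 0.019, the last without Cd36KO replicate 4, and Lamb1 (0.05) from -0.021, without Cd36KO replicate 2, to 0.14. The median log2 fold change of the matrix genes was negative under every alternative run for it, from -0.43 to -0.24.

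Depth limits the weakly counted genes. 12 of the 55 received no adjusted p, and of these Lama5 and Tnc still enter the counts of signs and the medians. With 4 libraries a group, the smallest exact p is 0.0286.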
